A study of Capra hircus with 10 samples.

Results

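The epidermal growth factor (EGF)-like ligands AREG, EREG and BTC, their receptor EGFR, and the cumulus expansion genes HAS2, TNFAIP6, PTX3, VCAN and CD44 were described in whole ovaries of Anhui white goats. The 9 genes were taken by name from the protein-coding rows of the deposited transcript table. All 9 symbols were present, among 20587 protein-coding gene symbols, and they were listed as 22 of 43766 protein-coding transcripts. The study compared 5 ovaries in the luteal phase (the corpus luteum, the progesterone-secreting gland left after ovulation, is present) with 5 in the follicular phase (follicles grow towards ovulation). Ovaries came from a slaughterhouse and carried no treatment. The labels give the breed, the tissue and the phase of each ovary, and neither an age nor a time since ovulation. The level of a gene was its FPKM (mapped fragments scaled to transcript length and to the sequencing depth of the ovary), summed over the gene's protein-coding transcripts, which allows levels to be compared between genes per length.

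In the preovulatory follicle, the surge of luteinizing hormone makes mural granulosa cells produce AREG, EREG and BTC. The ligands are made as membrane-bound precursors, are shed by proteases such as ADAM17, and bind EGFR on granulosa and cumulus cells. The cumulus cells around the oocyte then build a hyaluronan matrix and spread apart: HAS2 makes the hyaluronan, TNFAIP6 moves heavy chains of inter-alpha-inhibitor onto it, PTX3 links these heavy chains, VCAN (versican) binds hyaluronan, and CD44 is the hyaluronan receptor at the cell surface.

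Over all transcripts of the table, the summed FPKM of a luteal phase ovary ranged from 452508 to 503276 (median 474670), and that of a follicular phase ovary from 492324 to 540124 (median 504440). Read counts were not used here, so the depth behind each value is unknown, and the spread between ovaries is the measure of error. Nothing in the labels says that the ovaries came from separate animals, and p-values measure the spread between these samples. All 5 luteal cell markers found in the table were higher in the luteal phase, with a summed FPKM of 5806 to 8000 against 122 to 171 in the follicular phase. The granulosa cell markers summed to 127 to 690 FPKM in the luteal phase and to 277 to 1165 FPKM in the follicular phase, with 5 of 8 higher in the follicular phase and none higher in the luteal phase. No marker of either list was at 0 in any ovary. In whole ovaries, fewer cells of a type and less RNA per cell cannot be told apart.

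Between the phases, 4 of the 8 genes that passed the filter on low values (0.1 FPKM or more in 5 or more of the 10 ovaries) differed at an adjusted p under 0.05. This share stood beside 43.7% of the 15359 genes tested. EREG, PTX3 and CD44 were higher in the luteal phase, as were 15.9% of all genes tested. BTC was higher in the follicular phase, as were 27.8% of all genes tested. For these 4 genes the ovaries of the phases did not overlap in FPKM, which held for 28.4% of all genes tested. The median log2 fold change of the 8 genes, luteal minus follicular on the log2(FPKM + 0.1) scale, was 0.41, and that of all genes tested was -0.14. AREG, the ninth gene, did not pass the filter.

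**Figure D1:**
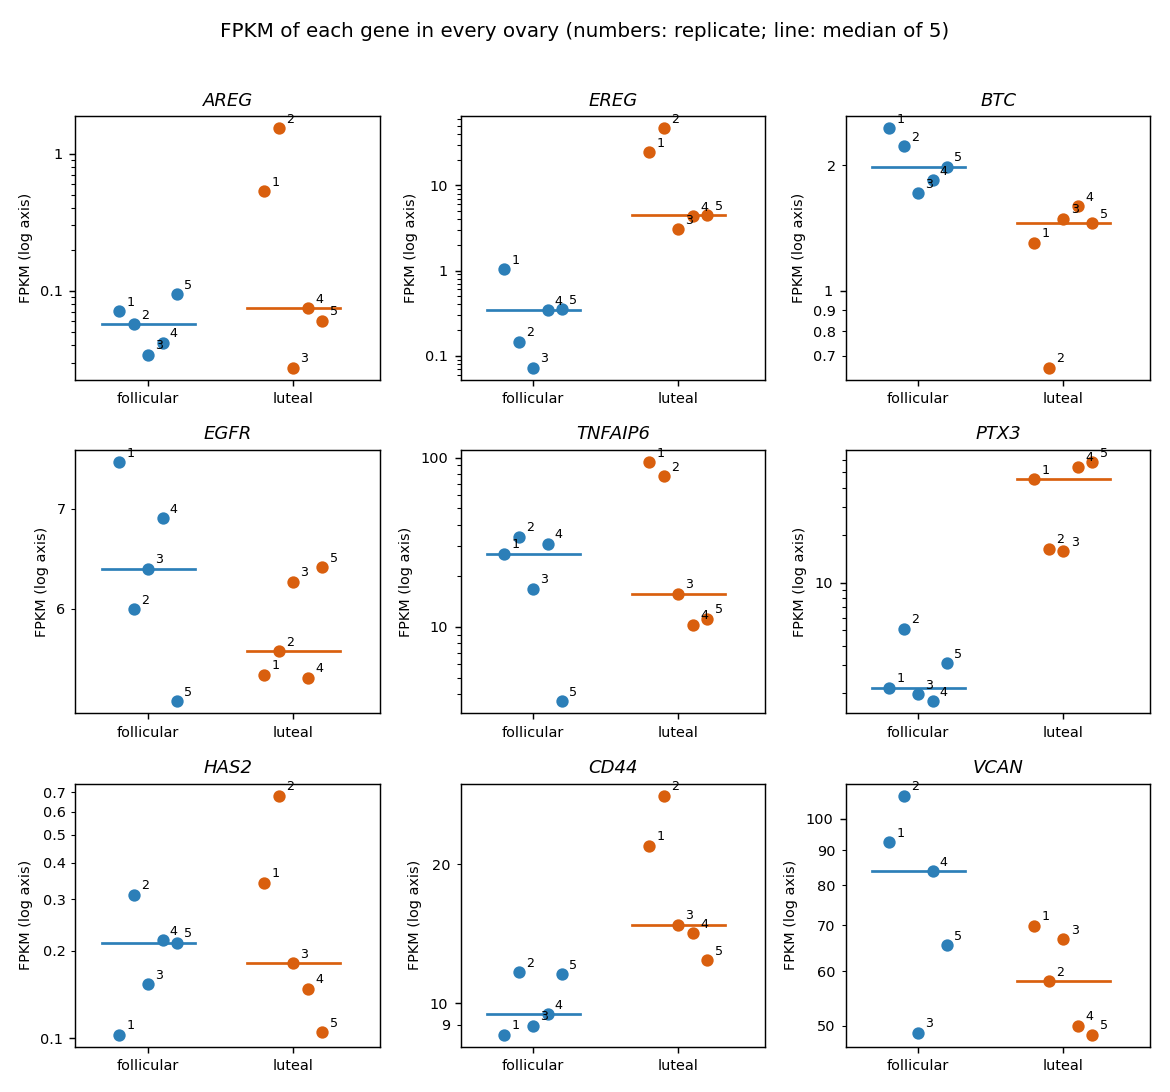
FPKM (log axis, with its own range in each panel) of the 9 genes in the 5 follicular phase and the 5 luteal phase ovaries; each point is an ovary with its replicate number, and each line is the median of 5. EREG, PTX3 and CD44 lie higher in every luteal phase ovary than in any follicular phase ovary, BTC lies lower, and luteal phase replicates 1 and 2 stand above the other 3 luteal phase ovaries for AREG, EREG, TNFAIP6, HAS2 and CD44.

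EREG (epiregulin, gene ID 102183226) was higher in the luteal phase. Its FPKM in luteal phase replicates 1 to 5 was 24.7, 46.9, 3.06, 4.33 and 4.44. In follicular phase replicates 1 to 5 it was 1.04, 0.146, 0.0721, 0.344 and 0.349. Every luteal phase ovary was above every follicular phase ovary, and luteal phase replicates 1 and 2 stood far above the other 3. The luteal phase median was 12.9 times the follicular phase median. The log2 fold change was 4.57 (SE 0.76, 95% interval 2.90 to 6.25, limma adjusted p = 0.000797). With luteal phase replicates 1 and 2 both left out, which was chosen after their values were seen, it was 3.34 (adjusted p = 0.00144), and with a pseudocount of 1 in place of 0.1 it was 2.99. EREG had a larger log2 fold change than PTX3 in the fit as reported, but PTX3 had the larger one in both of these alternatives (3.78 and 3.22) and the larger ratio of medians.

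EREG was listed as a pair of transcripts. XM_018049580.1 held 96.4% to 100% of the EREG value of the luteal phase ovaries and rose there by 5.08 on the log2 scale (adjusted p = 0.00315 over all transcripts tested). XM_018049581.1 was at 0.571, 0.941, 0.112, 0.0761 and 0 FPKM in luteal phase replicates 1 to 5 and at 0.0393, 0, 0, 0.344 and 0.128 in follicular phase replicates 1 to 5, with an adjusted p of 0.445. In follicular phase replicate 4 the whole of the EREG value was XM_018049581.1, whereas in follicular phase replicates 2 and 3 the whole was XM_018049580.1.

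AREG (amphiregulin, gene ID 102180661) was at the bottom of the range in most ovaries. Its FPKM in luteal phase replicates 1 to 5 was 0.534, 1.53, 0.0275, 0.0747 and 0.0608. In follicular phase replicates 1 to 5 it was 0.0710, 0.0570, 0.0342, 0.0418 and 0.0949. Luteal phase replicates 1 and 2, the same ovaries in which EREG was highest, were the only 2 of 10 with an FPKM of at least 0.1, and the other 3 luteal phase ovaries lay within or below the follicular phase range. When all genes were tested without a filter, AREG had a log2 fold change of 1.04 (adjusted p = 0.272). Of its 4 transcripts, XM_005681761.3 made up 89.9% of the AREG value in luteal phase replicate 2, while in luteal phase replicate 1 it made up 26.3% and XM_018049584.1 and XM_018049585.1 made up 35.7% and 36.3%. In follicular phase replicates 1 to 4 all of the AREG value was XM_013964723.2.

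BTC (betacellulin, gene ID 102183499), a ligand of EGFR and ERBB4, as EREG is, differed in the opposite direction. Its FPKM was 1.3, 0.655, 1.49, 1.6 and 1.45 in luteal phase replicates 1 to 5. It was 2.45, 2.22, 1.72, 1.84 and 1.98 in follicular phase replicates 1 to 5. The highest luteal phase ovary was below the lowest follicular phase ovary, and luteal phase replicate 2, the ovary with the most AREG and EREG, had the least BTC. The follicular phase median was 1.37 times the luteal phase median, and the log2 fold change was -0.66 (SE 0.22, adjusted p = 0.0301). The call rested on single ovaries and on the scaling: the adjusted p was 0.0698 without follicular phase replicate 1, 0.0528 without follicular phase replicate 2, and 0.0523 after the ovaries were shifted to a common median. In the goat RefSeq annotation (assembly ARS1.2, used for gene order alone) EPGN, EREG, AREG and BTC are neighbours in this order, so that EREG and BTC, which differed in opposite directions, lie on either side of AREG.

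EGFR (gene ID 102172767), the receptor of these ligands, varied little. Its FPKM was 5.42, 5.62, 6.26, 5.39 and 6.40 in luteal phase replicates 1 to 5 and 7.53, 5.99, 6.38, 6.90 and 5.20 in follicular phase replicates 1 to 5. The phases overlapped, and the log2 fold change was -0.13 (SE 0.11, 95% interval -0.37 to 0.11, adjusted p = 0.363).

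HAS2 (hyaluronan synthase 2, gene ID 102170334) was low in every ovary. Its FPKM was 0.343, 0.682, 0.181, 0.148 and 0.105 in luteal phase replicates 1 to 5 and 0.103, 0.311, 0.153, 0.217 and 0.213 in follicular phase replicates 1 to 5. Luteal phase replicates 1 and 2 were above all follicular phase ovaries, and the other 3 luteal phase ovaries lay within the follicular phase range. The log2 fold change was 0.25 (SE 0.36, 95% interval -0.53 to 1.03, adjusted p = 0.593), and without luteal phase replicate 2 it was -0.05.

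TNFAIP6 (gene ID 102184100), the hyaluronan-binding protein that transfers heavy chains, varied widely within both phases. Luteal phase replicates 1 to 5 were at 94.2, 77.6, 15.7, 10.3 and 11.1 FPKM. Follicular phase replicates 1 to 5 were at 27.0, 34, 16.8, 31.0 and 3.63 FPKM. The follicular phase ovaries lay between the luteal phase values, except for follicular phase replicate 5, which was the lowest of all 10. The luteal phase mean was the higher (41.8 ± 40.7 against 22.5 ± 12.4 FPKM, SD, n = 5 each), whereas the follicular phase median was the higher (27.0 against 15.7 FPKM). The log2 fold change was 0.58 (SE 0.76, 95% interval -1.09 to 2.25, adjusted p = 0.560), without follicular phase replicate 5 it was 0.015, and with luteal phase replicates 1 and 2 both left out it was -0.54.

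PTX3 (pentraxin 3, gene ID 102179601), the secreted pattern-recognition protein of the matrix, was higher in the luteal phase. Its FPKM was 45.2, 16.5, 15.9, 54.5 and 58.3 in luteal phase replicates 1 to 5. It was 2.16, 5.10, 1.96, 1.77 and 3.09 in follicular phase replicates 1 to 5. All luteal phase ovaries were above all follicular phase ovaries, and luteal phase replicates 1 and 2, which stood together for EREG and TNFAIP6, stood apart from each other for PTX3. The luteal phase median was 21.0 times the follicular phase median, and the log2 fold change was 3.60 (SE 0.42, 95% interval 2.68 to 4.52, adjusted p = 8.12e-05). Leaving out each ovary in turn gave log2 fold changes of 3.39 to 3.86.

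CD44 (gene ID 102182426), the cell surface receptor of hyaluronan, was also higher in the luteal phase. Its FPKM was 21.9, 28.1, 14.8, 14.2 and 12.4 in luteal phase replicates 1 to 5. It was 8.55, 11.7, 8.95, 9.47 and 11.6 in follicular phase replicates 1 to 5. The phases did not overlap, but luteal phase replicate 5 was close to follicular phase replicates 2 and 5. The luteal phase median was 1.56 times the follicular phase median (log2 fold change 0.80, SE 0.21, adjusted p = 0.00941). With luteal phase replicates 1 and 2 both left out, the log2 fold change was 0.46 (adjusted p = 0.0217).

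Of the 8 transcripts listed for CD44, XM_018059249.1 made up 90.0% to 96.6% of the summed FPKM in every ovary and was the only CD44 transcript called between the phases (log2 fold change 0.81, adjusted p = 0.0355). XM_018059247.1 had a log2 fold change of 1.04 and was not called (adjusted p = 0.198). Of the other transcripts, 3 were listed at 0 in all 10 ovaries.

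VCAN (versican, gene ID 102168630), a large proteoglycan that binds hyaluronan and that is also part of connective tissue, had the highest median level of the 9 genes in both phases. Its FPKM was 69.9, 58.0, 66.9, 50.0 and 48.5 in luteal phase replicates 1 to 5 and 92.5, 108, 48.9, 84.0 and 65.5 in follicular phase replicates 1 to 5. Follicular phase replicates 1, 2 and 4 were above all luteal phase ovaries, and follicular phase replicates 3 and 5 lay within the luteal phase range. The log2 fold change was -0.41 (SE 0.20, adjusted p = 0.113). Without follicular phase replicate 3 it was -0.57 (adjusted p = 0.0166).

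VCAN was listed as 3 transcripts, whose shares differed between ovaries. XM_005683395.3 made up 45.2%, 33.6%, 21.8%, 48.1% and 18.9% of the summed FPKM in follicular phase replicates 1 to 5 and 33.0%, 44.4%, 14.3%, 26.2% and 17.4% in luteal phase replicates 1 to 5. The rest was nearly all XM_018050052.1, which was the larger transcript in every ovary. The summed granulosa cell markers were 1165, 469, 277, 750 and 611 FPKM in follicular phase replicates 1 to 5 and 690, 201, 127, 224 and 395 FPKM in luteal phase replicates 1 to 5. The ovary with the lowest sum had the lowest VCAN level of its phase in the follicular phase, but in the luteal phase it had the second highest. The part of granulosa cells in the VCAN level was not tested.

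**Figure D2:**
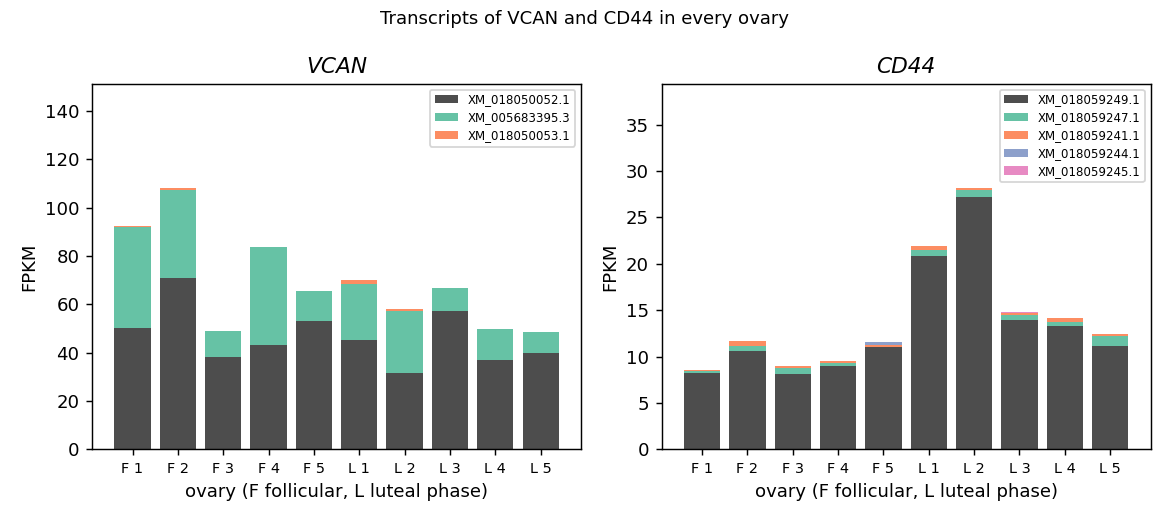
FPKM of each transcript of VCAN (left) and of CD44 (right), stacked for every ovary (F, follicular phase, and L, luteal phase, each with its replicate number). XM_018059249.1 fills nearly the whole CD44 bar in every ovary, while the share of XM_005683395.3 in the VCAN bar runs from 14.3% to 48.1%; CD44 transcripts at 0 in all ovaries are left out.

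Of the 22 transcripts, 13 passed the filter and 3 of these differed between the phases, namely PTX3's only transcript, EREG XM_018049580.1 and CD44 XM_018059249.1, beside 17.3% of all transcripts tested. The call of CD44 XM_018059249.1 was lost without follicular phase replicate 1, 3 or 4 or luteal phase replicate 1 (adjusted p = 0.0769, 0.0782, 0.0692 and 0.0755), which left 2 transcripts called. The single BTC transcript, the same values as the gene, had an adjusted p of 0.0953 over all transcripts. In a test of whether a transcript changed unlike the rest of its gene (limma diffSplice), which called 2.51% of all transcripts tested, none of the tested transcripts of EREG, VCAN and CD44 was called. The pair of EREG transcripts, which this test sets against each other and which therefore share a single result, passed an unadjusted threshold of 0.05 (diffSplice adjusted p = 0.0654). No other transcript of these genes passed it. On simulated data this test missed most of the changes put in and made many false calls, so the shares are given as a description. The simulation shuffled the deviations of each transcript separately over the ovaries. Transcripts of a gene then no longer varied together, so its error rates need not hold for these data.

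The levels were ordered differently in the phases. By median FPKM the order in the luteal phase was VCAN, PTX3, TNFAIP6, CD44, EGFR, EREG, BTC, HAS2 and AREG. In the follicular phase it was VCAN, TNFAIP6, CD44, EGFR, PTX3, BTC, EREG, HAS2 and AREG. PTX3 moved from below EGFR to the place after VCAN, and EREG moved from below BTC to above it. Among neighbours in the luteal phase order, only CD44 and EGFR, and EREG and BTC, had ranges over the 5 ovaries that did not overlap. In the follicular phase the ranges of VCAN and TNFAIP6, of CD44, EGFR and PTX3, of BTC and EREG, and of HAS2 and AREG were separate from their neighbours, and those of TNFAIP6 and CD44, of PTX3 and BTC, and of EREG and HAS2 overlapped.

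Single ovaries of a phase differed more for most of these genes than for the typical gene. The SD of log2(FPKM + 0.1) over the 5 follicular phase ovaries was 1.32 for TNFAIP6, 1.04 for EREG, 0.60 for PTX3, 0.45 for VCAN and 0.38 for HAS2, beside a median SD of 0.22 over all genes tested. It was 0.20 for EGFR, 0.20 for BTC and 0.21 for CD44. In the luteal phase the SD was 1.74 for EREG, 1.55 for TNFAIP6, 0.94 for PTX3, 0.77 for HAS2, 0.49 for CD44, 0.48 for BTC and 0.24 for VCAN, beside a median of 0.20, and that of EGFR was 0.12.

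Within the follicular phase, replicate 2 had the highest value for 5 of the 9 genes (TNFAIP6, PTX3, HAS2, CD44 and VCAN) and the lowest for none. The summed mesothelium markers were also highest in this ovary, at 29.8 FPKM against 7.46 to 11.3 FPKM in the other 4. This came mainly from KRT8, at 26.6 FPKM. The other tested mesothelium markers were not highest there: MSLN was highest in follicular phase replicate 4 and KRT19 in follicular phase replicate 5. The part of mesothelium in the values of these genes was not tested. Follicular phase replicate 1 was highest for EREG, BTC and EGFR, and it was lowest for HAS2 and CD44. Follicular phase replicate 3 was the lowest for 4 genes (AREG, EREG, BTC and VCAN), and replicate 5, lowest for TNFAIP6, was also the lowest for EGFR. In the luteal phase, replicate 2 was highest for AREG, EREG, HAS2 and CD44 and replicate 1 for TNFAIP6 and VCAN.

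**Figure D3:**
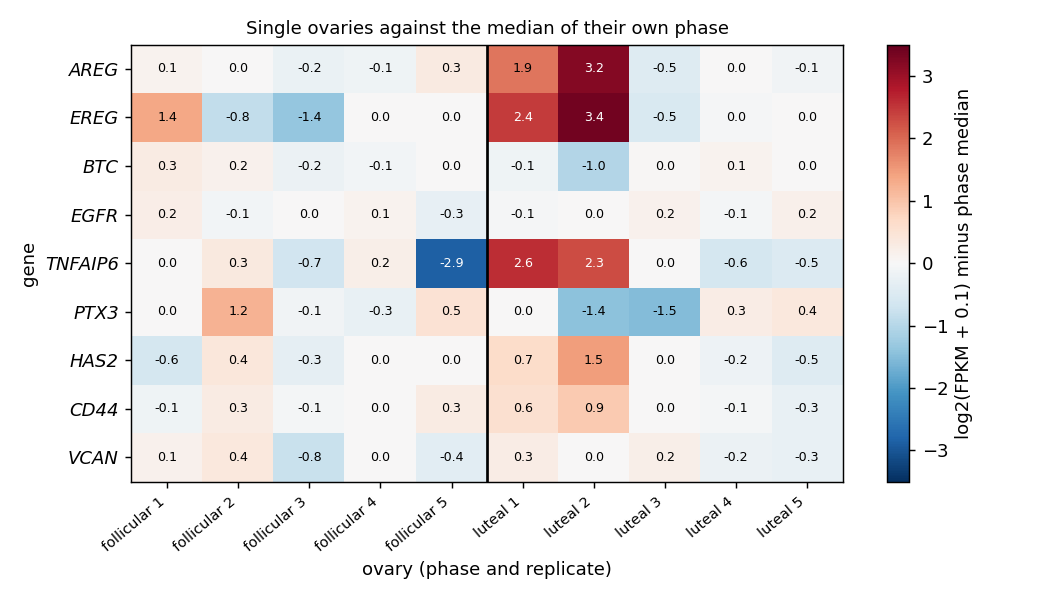
Difference of log2(FPKM + 0.1) in each ovary from the median of its own phase (colour and printed value) for the 9 genes, with the follicular phase ovaries left of the black line and the luteal phase ovaries right of it. Luteal phase replicates 1 and 2 are above their phase's median for AREG, EREG, TNFAIP6, HAS2 and CD44, while follicular phase replicate 5 is far below its median for TNFAIP6 alone.

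Of the 5 luteal cell markers, OXT alone set luteal phase replicates 1 and 2 apart, and it was chosen after its values were seen. OXT (the oxytocin precursor, made by the ruminant corpus luteum) was at 2607 and 1977 FPKM there and at 1021, 1123 and 1133 FPKM in replicates 3 to 5. The summed luteal cell markers were 8000 and 7942 FPKM in replicates 1 and 2 and 5806, 7732 and 7578 FPKM in replicates 3 to 5. Without OXT the sums were 5393 and 5965 FPKM against 4785, 6610 and 6445 FPKM, so that replicates 1 and 2 lay within the range of the other 3. The summed granulosa cell markers were 690 and 201 FPKM in replicates 1 and 2 and 127, 224 and 395 FPKM in replicates 3 to 5. The summed mesothelium markers (of 3 tested, MSLN was higher and KRT19 lower in luteal phase ovaries, and KRT8 was not called) were 22.7 and 23.8 FPKM in replicates 1 and 2 and 8.79, 15.5 and 11.3 FPKM in replicates 3 to 5. MSLN and KRT8 were highest and KRT19 was lowest in replicates 1 and 2, and LRRN4, the untested marker, was under 0.1 FPKM in all 10 ovaries and at 0 in 3. Whether any of these cell types had a part in the AREG, EREG, TNFAIP6, HAS2 and CD44 values of these ovaries was not tested.

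The genes that varied most like each of the 8 tested genes within the phases were found by Pearson's r over the 10 ovaries, each value taken as its difference from the mean of its phase. Genes named LOC were passed over in this search. The r is a description, since genes of an ovary share its library and its unknown depth, and each r printed is picked as the highest over many genes. HAS2 and CD44 had each other as the most alike gene among those searched (r = 0.965). For HAS2, MYDGF followed (r = 0.961), and for CD44, BDKRB1 (r = 0.957), the bradykinin receptor B1. EREG varied most like TUBB (r = 0.972), DNAI1 (r = 0.943) and C21H14orf132 (r = 0.938), and of these DNAI1 was higher and TUBB lower in the luteal phase. TNFAIP6 varied most like LARS2 (r = 0.963), PTX3 most like RAPGEF5 (r = 0.953) and VCAN most like KCNIP1 (r = 0.954). BTC varied most like MSX2 (r = 0.944), which like BTC was lowest in luteal phase replicate 2, at 0.254 FPKM, among all 10 ovaries. EGFR varied most like HHIPL1 (r = 0.905).

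**Figure D4:**
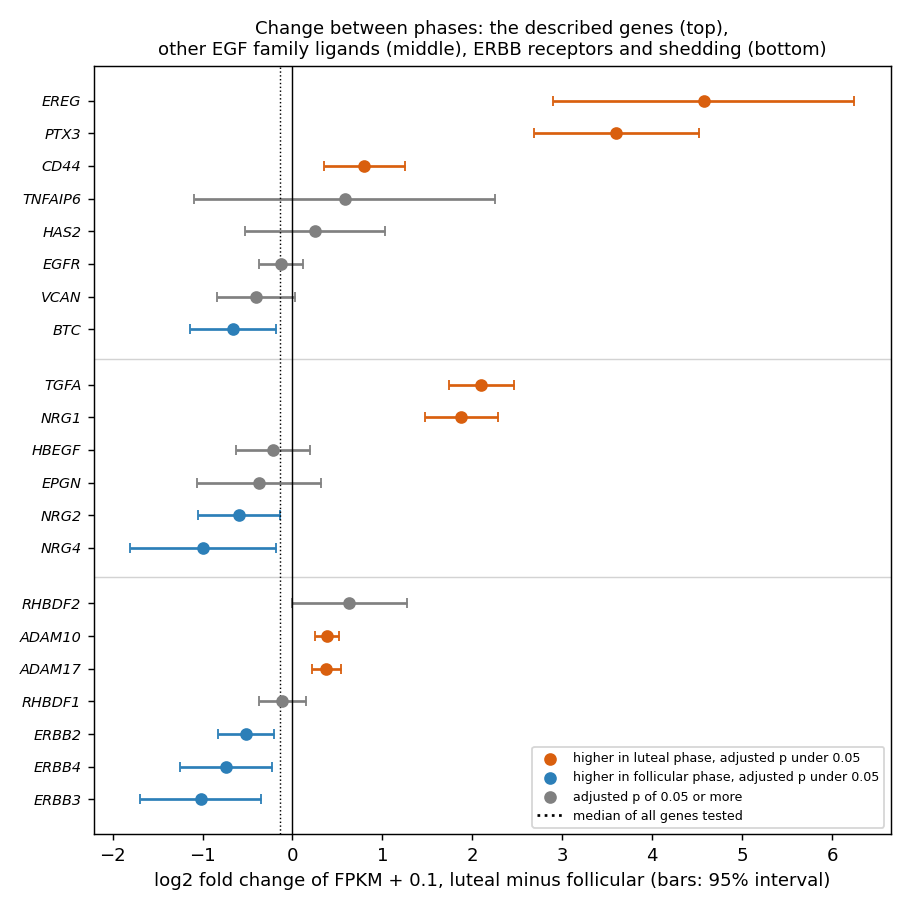
Log2 fold change of FPKM + 0.1, luteal minus follicular (points), with its 95% interval (bars), for the 8 tested genes (top), the other EGF family ligands (middle) and the other ERBB receptors and shedding genes (bottom); the dotted line is the median of all genes tested, -0.14. EREG (4.57), PTX3 (3.60), TGFA (2.1) and NRG1 (1.88) lie farthest to the right, and the points of ERBB2, ERBB3 and ERBB4 lie left of the dotted line.

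Of the 8 other EGF family ligands, 6 were tested. Luteal phase ovaries had more of 2 of these and less of another 2, and the median log2 fold change of the 6 was -0.30. These counts stood beside 43.7% of all genes called, 15.9% higher in the luteal phase and 27.8% higher in the follicular phase. TGFA (transforming growth factor alpha), a ligand of EGFR, was at 5.06, 7.13, 5.43, 6.33 and 7.48 FPKM in luteal phase replicates 1 to 5 and at 1.5, 1.73, 1.56, 1.11 and 1.07 FPKM in follicular phase replicates 1 to 5. Its phases did not overlap and its luteal phase ovaries were close together, unlike those of EREG (log2 fold change 2.1, SE 0.17, adjusted p = 4.87e-06). NRG1 (neuregulin 1), a ligand of ERBB3 and ERBB4, was at 3.43, 6.41, 4.97, 3.86 and 4.14 FPKM in luteal phase replicates 1 to 5, against 0.936 to 1.5 FPKM in the follicular phase (log2 fold change 1.88, SE 0.18, adjusted p = 2.36e-05). NRG2 (log2 fold change -0.60, adjusted p = 0.0382) and NRG4 (-0.995, adjusted p = 0.0471) were higher in the follicular phase, with overlapping ovaries. Neither call was firm: NRG2 kept it when follicular phase replicate 2 or luteal phase replicate 3 was left out but in none of the other 8 such fits (adjusted p up to 0.0903), and NRG4 kept it without follicular phase replicate 3 or luteal phase replicate 3 alone (adjusted p up to 0.106). HBEGF and EPGN had log2 fold changes of -0.22 and -0.37 and were not called, and EGF and NRG3 were below 0.05 FPKM in all 10 ovaries.

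Among the 7 other ERBB receptor and ligand shedding genes, the proteases ADAM10 and ADAM17 were higher in the luteal phase and the receptors ERBB2, ERBB3 and ERBB4 were higher in the follicular phase (median log2 fold change of the list -0.11). Over all genes tested, 43.7% were called, with 15.9% higher in the luteal phase and 27.8% higher in the follicular phase. ADAM17, which sheds AREG and EREG, was at 15.4 to 19.0 FPKM in the luteal phase and at 12.5 to 14.2 FPKM in the follicular phase, without overlap (log2 fold change 0.38, SE 0.08, adjusted p = 0.00225). ADAM10, which sheds BTC, was at 42.8 to 50.2 and at 33.9 to 36.2 FPKM (log2 fold change 0.38, SE 0.06, adjusted p = 0.000619). The log2 fold changes of ERBB2, ERBB3 and ERBB4 were -0.52 (adjusted p = 0.0135), -1.02 (adjusted p = 0.0200) and -0.74 (adjusted p = 0.0245). ERBB4 was near the 0.1 FPKM of the filter and the pseudocount, at 0.0229 to 0.108 FPKM in the luteal phase and 0.121 to 0.314 FPKM in the follicular phase. The ERBB3 call was lost without luteal phase replicate 4 (adjusted p = 0.0517). The ERBB4 call was lost without follicular phase replicate 1, luteal phase replicate 4 or luteal phase replicate 5 (adjusted p up to 0.0626). It was also lost with a pseudocount of 1 and with quantile normalization, and a filter at 0.5 FPKM removed ERBB4. ERBB2 had an adjusted p of 0.0666 when FPKM were rescaled to TPM. RHBDF1 and RHBDF2, which carry ADAM17 to the cell surface, had log2 fold changes of -0.11 and 0.63 and were not called.

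Listed were 10 feedback and target genes of EGFR signalling, which other receptor tyrosine kinases also regulate. Of these, 7 were higher in the luteal phase and 1 was higher in the follicular phase (median log2 fold change 0.62). Of all genes tested, 43.7% were called, 15.9% as higher in the luteal phase and 27.8% as higher in the follicular phase. The luteal count was 6 in some fits that each dropped an ovary and with the most abundant transcript. It was 5 with luteal phase replicates 1 and 2 both left out. The Sprouty genes SPRY4, SPRY2 and SPRY1, inhibitors of signalling from receptor tyrosine kinases, rose by log2 fold changes of 1.6, 1.36 and 1.36 (adjusted p = 0.000168, 3.97e-05 and 9.03e-05). ERRFI1, an inhibitor of EGFR itself, fell by 0.43 on the log2 scale (adjusted p = 0.0478), and of 10 fits that each dropped an ovary 7 lost this call (adjusted p up to 0.113), the exceptions being those without follicular phase replicate 1, follicular phase replicate 4 or luteal phase replicate 1.

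**Figure D5:**
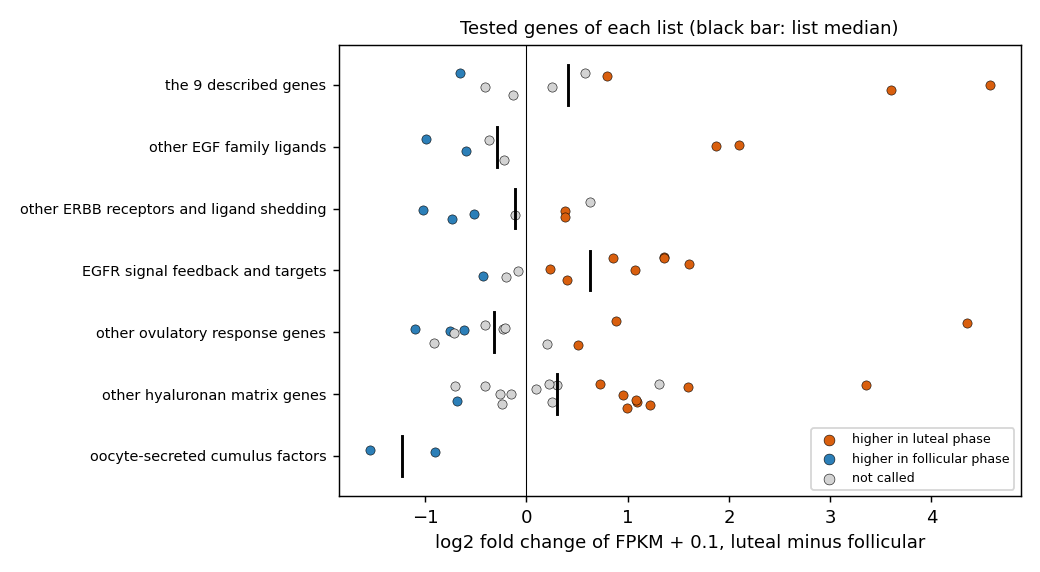
Log2 fold change of FPKM + 0.1, luteal minus follicular, of every tested gene (points, spread vertically for legibility) in the 9 described genes, 8 of them tested, and in 6 lists of related genes; colour gives the call at an adjusted p under 0.05, and the black bar is the list's median. The medians run from -1.23 for the oocyte-secreted factors to 0.62 for the EGFR feedback and target genes, beside -0.14 for all genes tested.

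Of 12 other genes of the ovulatory response, 3 were higher in the luteal phase, 3 were higher in the follicular phase and 6 were not called (median log2 fold change -0.32), beside 43.7% of all genes called, 15.9% higher in the luteal phase and 27.8% higher in the follicular phase. With luteal phase replicates 1 and 2 both left out, 5 were higher in the follicular phase. IL6, a cytokine that can drive cumulus expansion, was at 14.2, 34.6, 6.39, 7.16 and 7.51 FPKM in luteal phase replicates 1 to 5 and at 0.207, 3.75, 0.0817, 0.159 and 0.819 FPKM in follicular phase replicates 1 to 5. As for EREG, its luteal phase values were highest in replicates 2 and 1 and did not overlap the follicular phase (log2 fold change 4.35, SE 0.78, adjusted p = 0.00119). RUNX2 and CEBPB, transcription factors of luteinizing granulosa cells, rose by log2 fold changes of 0.88 and 0.51 (adjusted p = 0.000133 and 0.0182). PGR, the progesterone receptor needed for follicle rupture, fell by 1.10 on the log2 scale (adjusted p = 0.000793), SNAP25, a vesicle fusion protein, fell by 0.76 (adjusted p = 0.00220), and NRIP1, a nuclear receptor corepressor, fell by 0.61 (adjusted p = 0.000336).

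Of 25 other genes that make, bind, modify or cut the hyaluronan and versican matrix, 24 were in the table and 19 were tested. Higher luteal phase values were called for 8 and higher follicular phase values for 1, and 10 were not called (median log2 fold change 0.30), beside the same 43.7%, 15.9% and 27.8% of all genes. The follicular count was 2 without follicular phase replicate 3, luteal phase replicate 1 or luteal phase replicate 2 and also with a replicate block, and it was 3 with luteal phase replicates 1 and 2 both left out. ITIH4, a member of the inter-alpha-trypsin inhibitor heavy chain family best known as a plasma protein from the liver, was at 176 to 237 FPKM in the luteal phase and at 16.0 to 23.6 FPKM in the follicular phase (log2 fold change 3.35, SE 0.11, adjusted p = 4.13e-09). The other listed genes of this family were either too low to be tested or not called. Whether ITIH4 had a part in a hyaluronan matrix was not tested. CEMIP, a protein of hyaluronan breakdown, and STAB2, a receptor that clears hyaluronan and is found on sinusoidal and lymphatic endothelium, rose by log2 fold changes of 1.6 and 1.22 (adjusted p = 0.000229 and 0.00321). The 5 endothelial markers were all higher in the luteal phase as well, with a summed FPKM of 169.7 to 204 against 94.7 to 115, and their part in the STAB2 difference was not tested. HAS3, another hyaluronan synthase, fell by 0.68 on the log2 scale (adjusted p = 0.00830), but its most abundant transcript alone was not called and turned in sign (adjusted p = 0.947).

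The oocyte factors GDF9 and BMP15, which enable cumulus cells to expand, were both higher in the follicular phase, as were 27.8% of all genes tested. GDF9 was at 1.5 to 2.21 FPKM in the luteal phase and at 2.81 to 4.75 FPKM in the follicular phase (log2 fold change -0.91, SE 0.16, adjusted p = 0.00125). BMP15 was at 0.263 to 0.590 and at 1.21 to 1.9 FPKM (log2 fold change -1.55, SE 0.21, adjusted p = 0.000190). Beside them, 3 of 5 oocyte markers were higher in the follicular phase, with a summed FPKM of 12.1 to 40 there and of 6.30 to 16.5 in the luteal phase, and the part of the number of oocytes in these values was not tested.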

How the data were processed

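Ribosomal RNA was removed from the total RNA of each ovary, and strand-specific libraries were sequenced from both ends. The authors aligned reads with HISAT2 2.0.4, assembled transcripts with StringTie 1.3.1 and computed the deposited FPKM per transcript and ovary with Cuffdiff 2.1.1. The genome build is not given in the sources used here, so no coordinates or sequences are printed. FPKM splits reads among transcripts by a model, which makes values of single transcripts less certain than sums.

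FPKM was summed per symbol over protein-coding transcripts and analysed as log2(FPKM + 0.1), which understates the change of low genes, without further scaling. The test covered genes at 0.1 FPKM or more in 5 or more ovaries. It was limma 3.58.1 (lmFit, eBayes with trend) in R 4.3.3, luteal minus follicular, two-sided, with Benjamini-Hochberg adjustment over the 15359 genes tested. Transcripts were tested likewise. Fits were tested on simulated data. The same fit was repeated with pseudocounts of 1 and 0.01, other filters, other scalings, eBayes without trend, a block for the replicate number, the most abundant transcript, and each ovary left out.

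The members and lists were chosen with earlier results of these data known. Named were all members, all ligands, receptors, shedding genes and oocyte factors, up to 3 called genes with the largest change in each direction of the other lists, and up to 3 genes most like each member, with genes named LOC passed over in this last search. Listed symbols were matched by name or RefSeq synonym. CEMIP2, HSD3B1, OOSP1 and UPK3B were not analysed here. Of the other marker lists, theca cell (1 of 3 higher in the luteal phase, 2 in the follicular phase), stroma (2 and 1 of 6), smooth muscle (0 and 4 of 4), leukocyte (1 and 0 of 7) and mesothelium (1 and 1 of 3) were counted in the same fit.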

Additional observations from a re-analysis of the deposited data

Results flagged for a closer look

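BTC in luteal phase replicate 2, at 0.655 FPKM, was lower than the other 4 ovaries of its phase by more than Dixon's 95% critical value for 5 samples allows on the log2(FPKM + 0.1) scale (gap 0.767 of the range, critical value 0.71). On the FPKM scale the gap was 0.69 of the range, which is under that value. It was the only flag among 74 groups of 5 ovaries checked, and chance flags about 1 in 20 groups. Without this ovary BTC had a log2 fold change of -0.45 and was still called.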

How the results depend on the processing

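EREG, PTX3 and CD44 kept their direction and their call under all 10 planned settings and all 10 fits without 1 ovary (EREG 2.99 to 5.08, PTX3 3.22 to 3.86 and CD44 0.63 to 0.92 on the log2 scale). BTC lost its call, so that 0 genes were called as higher in the follicular phase, without a filter (-0.66, adjusted p = 0.0518), with all ovaries brought to the same median (-0.57, adjusted p = 0.0523), with quantile normalization (-0.57, adjusted p = 0.0564), as TPM (-0.59, adjusted p = 0.0831), as its most abundant transcript (-0.66, adjusted p = 0.0526, BTC having 1 transcript) and, chosen after seeing the data, without luteal phase replicates 1 and 2 (-0.40, adjusted p = 0.0736). Without single ovaries BTC ran from -0.74 to -0.45, VCAN from -0.57 to -0.28, HAS2 from -0.046 to 0.44, TNFAIP6 from 0.015 to 0.92, and the number of genes higher in the follicular phase from 0 to 2. Without luteal phase replicates 1 and 2 HAS2 was at -0.26 and TNFAIP6 at -0.54. The cause was not tested.

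With a replicate block BTC was at -0.66 (adjusted p = 0.0511), and 7020 genes were called in place of 6711. Nothing in the labels ties equal numbers to each other, and the numbers were not taken to pair the ovaries: same-numbered ovaries had correlations of 0.0258 to 0.199 over genes, not all over 0.1. All 5 were positive and 3 of 5 ovaries correlated best with their own number, a hint from the data that does not settle whether they pair. The block changed no other call of the 8 tested genes. Without read counts, the depth behind the low values of AREG and HAS2 is unknown.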
